A study of Saccharomyces cerevisiae with 176 samples.

Results

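The tricarboxylic acid cycle enzymes of budding yeast, Saccharomyces cerevisiae, were followed through 176 RNA-seq libraries in 81 groups. The set is 10 named genes, at least 1 for each step of the mitochondrial cycle, taken by symbol from the 6692 genes in the table, and all 10 were found: CIT1 (YNR001C), ACO1 (YLR304C), IDH1 (YNL037C), IDH2 (YOR136W), KGD1 (YIL125W), LSC1 (YOR142W), LSC2 (YGR244C), SDH1 (YKL148C), FUM1 (YPL262W) and MDH1 (YKL085W). The choice was by name and used no measured value, though earlier results of these data were known when it was made. Levels are log2(TPM + 1), where TPM is a transcript's abundance as a share of all transcripts in the library, a unit already divided by transcript length.

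The cycle oxidises acetyl-CoA in the mitochondrial matrix and passes the electrons to the respiratory chain. In yeast growing on plentiful glucose the genes of the cycle are repressed, and they are induced when glucose runs out or when cells respire. The genes are known to answer to the HAP complex, which binds CCAAT and whose activating subunit is Hap4, and to the retrograde factors Rtg1 and Rtg3, which bind GTCAC and act on the early steps of the cycle (citrate synthase, aconitase and isocitrate dehydrogenase) when mitochondria work poorly.

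The study grew euploid strains and aneuploid strains, which carry an abnormal number of chromosomes, of the S288C background. In batch culture (YEPD with 2% glucose, 25 °C, exponential growth), exp1 to exp3 held 8 libraries of a strain labelled 2N and 36 libraries of 10 aneuploid strains, A1, A18, A19, A20, A21, A22, A23, A25, A27 and A35, all made from total RNA. Experiments without a 2N library were exp4 (18 libraries, total RNA), exp5 (24 libraries, polyA RNA) and exp6 (24 libraries, polyA RNA). Exp4 held 10 aneuploid strains, A18, A20, A21, A22, A23, A24, A25, A27, A36 and A37. Exp5 held 12 aneuploid strains, A1, A24, A26, A28, A29, A30, A32, A33, A34, A35, A36 and A38. Exp6 held 8 of those 12, A26, A28, A29, A30, A32, A33, A34 and A38. A phosphate-limited chemostat at a dilution rate of 0.17 per h gave 2 libraries of 2N and 2 of each of 9 aneuploid strains; both A24 titles carry the same code, F10, so these may not be separate cultures. Pooled spores of diploids (euploid) or triploids (aneuploid), all carrying the plasmid pRS315-STE2pr-spHIS5, were grown by a protocol labelled Dilution or by one labelled Tsai, with 3 libraries each, beside 3 libraries of the exponentially growing wild-type haploid A2050. The same haploid was sampled every 2 h from 0 to 26 h in YEPD with 2% glucose, with 2 libraries a time; the samples titled 26 h also carry a code that reads 28 h, and 26 h is used here. In a different background, W303, 3 libraries of a haploid grown at 30 °C were made 40 min after 500 mM NaCl. These were made from polyA RNA, as were the chemostat, population and time course libraries. The labels do not say which chromosomes each strain carries or what sets the Dilution protocol apart from the Tsai protocol.

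Of the full scale of TPM, the deposited values of a library summed to 5.03% to 12.3% in exp1 to exp4, to 95.0% to 99.6% in exp5 and exp6, to 85.1% to 98.9% in the chemostat, to 87.1% to 93.8% in the populations, to 15.4% to 97.2% in the time course and to 14.0% to 20.5% in the NaCl libraries. The scale of a level therefore differs between experiments. Tests against 2N had experiment as a term or stayed within the chemostat. Chemostat and batch culture were compared by their differences from 2N. Ranges, medians and means pooled over exp1 to exp3 carry no such adjustment. Neither does the setting of exp4 beside exp3, of exp6 against exp5 or of the gene order across experiments. In exp1 to exp3, with each library's TPM rescaled to the full scale, haploid-specific mating genes summed to 24.9 to 187 in 2N. They summed to 23.8 to 978 in the aneuploid libraries, so the mating state of the cells may differ between these groups. Its part in the results was not tested. In bulk RNA, fewer cells with a transcript and less of it per cell cannot be told apart.

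The 10 genes lie on 7 chromosomes of the R64 (sacCer3) genome. CIT1 spans chrXIV:629622-631061 and IDH1 spans chrXIV:557920-559002, both on the minus strand. IDH2 (chrXV:580250-581359) and LSC1 (chrXV:593057-594046) are near neighbours on the plus strand, and SDH1 (chrXI:169207-171129, minus strand) and MDH1 (chrXI:279123-280127, plus strand) share chromosome XI. ACO1 spans chrXII:735212-737548 (minus strand), KGD1 chrIX:122689-125733 (plus), LSC2 chrVII:978036-979319 (minus) and FUM1 chrXVI:47336-48802 (plus). Each span is the coding sequence, from start codon to stop codon. No stretch of 36 bases in any of the 10 coding sequences occurred anywhere else in the genome, so reads of that length or longer place each gene apart from its relatives (such as CIT2, CIT3, MDH2 and MDH3).

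The letters of both transcription systems were searched for in the 500 bases before each start codon, on both strands, in 6659 promoters of the genome. CCAAT was found in 8 of the 10 cycle genes (in all but LSC1 and LSC2) and in 63.4% of all promoters. The longer ACCAATNA, which holds CCAAT, was found in ACO1 and SDH1 and in 8.71% of promoters. GTCAC was found in CIT1, ACO1, IDH1, KGD1, LSC2, SDH1 and FUM1 and in 42.9% of promoters, and the longer GGTCAC, which holds it, in ACO1 and IDH1 and in 9.58%. Promoters of SDH1, ACO1 and IDH1 are shown because they hold the longer motifs, and because SDH1 parted from ACO1 and IDH1 in the time course. Capitals mark matches of these motifs on either strand, and each run is written 5′ to 3′ in the direction of the gene from R64, at chrXI:171180-171479 for SDH1, chrXII:737709-738008 for ACO1 and chrXIV:559073-559372 for IDH1, all on the minus strand.
SDH1: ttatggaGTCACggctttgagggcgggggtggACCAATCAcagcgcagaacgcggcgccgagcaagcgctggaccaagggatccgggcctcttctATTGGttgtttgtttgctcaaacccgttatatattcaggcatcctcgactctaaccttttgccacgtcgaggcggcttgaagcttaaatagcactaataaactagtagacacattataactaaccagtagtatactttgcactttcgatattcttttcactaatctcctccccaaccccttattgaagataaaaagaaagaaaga
ACO1: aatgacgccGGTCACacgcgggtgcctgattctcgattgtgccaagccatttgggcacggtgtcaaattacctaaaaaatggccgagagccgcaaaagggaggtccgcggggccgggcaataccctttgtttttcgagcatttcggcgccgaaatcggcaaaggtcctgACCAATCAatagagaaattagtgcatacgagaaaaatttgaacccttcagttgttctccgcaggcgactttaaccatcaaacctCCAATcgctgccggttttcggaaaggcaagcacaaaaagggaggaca
IDH1: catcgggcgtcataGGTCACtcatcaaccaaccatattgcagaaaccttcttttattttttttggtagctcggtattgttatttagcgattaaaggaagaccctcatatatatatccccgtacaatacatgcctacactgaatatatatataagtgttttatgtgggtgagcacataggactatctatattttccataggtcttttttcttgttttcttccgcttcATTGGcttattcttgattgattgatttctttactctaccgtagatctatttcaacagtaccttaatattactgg
In SDH1 these 300 bases end 51 bases before the start codon, in ACO1 161 bases before it, and in IDH1 71 bases before it. A match is a string of letters and not a shown binding site.

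In batch culture most of the cycle was higher in the aneuploid strains than in 2N, with IDH2, LSC2 and CIT1 at the front. Over exp1 to exp3, 8 of the 10 genes were higher in the mean of the 10 aneuploid strains and 0 were lower, where 10% of all 3152 genes tested were higher and 4.19% were lower (limma with experiment as a term, Benjamini-Hochberg adjusted p under 0.05 over all genes). The median difference of the 10 genes was 0.62 on the log2 scale, against 0.05 over all genes tested. FUM1 and SDH1 did not pass, and at an unadjusted p under 0.05 the count was also 8.

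IDH2, a subunit of the NAD-dependent isocitrate dehydrogenase, had the widest gap. In 2N it was at 4.25, 3.72, 4.69 and 4.06 in exp1, at 3.06 and 3.06 in exp2 and at 3.57 and 3.54 in exp3. In A21 it was at 5.59 and 5.70 in exp1, 5.09 and 5.24 in exp2 and 5.81 and 5.80 in exp3. Every A21 library was above every 2N library, and over all strains the 36 aneuploid libraries ran from 3.85 to 5.81 with a median of 4.94. The mean TPM was 13.3 in 2N and 32.6 in the aneuploid libraries. The difference was 1.13 ± 0.13 (SE, log2 scale, adjusted p = 4.22e-08, limma).

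IDH1, the other subunit of that enzyme, differed by 0.69 ± 0.15 (adjusted p = 0.00142, limma). Its level was 2.78 to 3.67 (median 3.17) in the 8 2N libraries and 2.36 to 4.89 (median 3.98) in the 36 aneuploid libraries, so the groups overlapped. CIT1, the mitochondrial citrate synthase that admits acetyl-CoA, was at 3.07 to 3.95 (median 3.22) in 2N and at 3.14 to 5.64 (median 4.49) in the aneuploid libraries. The lowest aneuploid values of CIT1 came from A35 (3.14 and 3.35) and A1 (3.18 and 3.28), inside the 2N range, and the highest from A21 in exp1 (5.51 and 5.64). Its mean difference was 0.84 ± 0.14 (adjusted p = 2.25e-05, limma). ACO1, aconitase, which turns citrate into isocitrate, differed by 0.62 ± 0.10 (adjusted p = 3.48e-05, limma), from 4.15 to 5.21 in 2N to 4.36 to 6.00 in the aneuploid libraries.

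The middle of the cycle followed. LSC2, the beta subunit of succinyl-CoA ligase, was at 1.79 to 3.21 (median 2.51) in 2N and at 2.58 to 4.57 (median 3.52) in the aneuploid libraries, a difference of 1.05 ± 0.14 (adjusted p = 1.31e-06, limma). Its partner LSC1, the alpha subunit, differed by 0.37 ± 0.12 (adjusted p = 0.0315, limma), a call that was lost when any of 5 of the 8 2N libraries, A1 replicate 2 of exp2 or A18 replicate 1 of exp3 was left out (adjusted p from 0.0512 to 0.109). KGD1, the E1 subunit of alpha-ketoglutarate dehydrogenase, differed by 0.55 ± 0.09 (adjusted p = 4.84e-05, limma), from a median of 3.34 in 2N to 3.99.

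The last steps differed among themselves. MDH1, the mitochondrial malate dehydrogenase that closes the cycle, was at 2.79 to 3.39 (median 3.21) in 2N and at 2.53 to 4.82 (median 4.04) in the aneuploid libraries, higher by 0.62 ± 0.13 (adjusted p = 0.000745, limma). SDH1, the flavoprotein subunit of succinate dehydrogenase, was at 2.03 to 3.18 in 2N and at 1.58 to 4.30 in the aneuploid libraries, with a difference of 0.14 ± 0.15 (adjusted p = 0.589, limma). FUM1, fumarase, differed by 0.15 ± 0.12 (adjusted p = 0.472, limma), and its sign turned between experiments, at -0.39 in exp1 alone, 0.54 in exp2 alone and 0.66 in exp3 alone. Its 2N libraries were at 3.89, 3.75, 3.85 and 3.58 in exp1, at 2.72 and 3.19 in exp2 and at 3.53 and 3.04 in exp3. IDH2 kept its sign in the same 3 fits (0.87, 1.81 and 1.53), as did CIT1 (0.90, 1.22 and 1.30) and LSC2 (1.32, 1.28 and 0.82). In these fits 6, 6 and 9 of the 10 genes were called, and the share of all genes called is not given here.

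**Figure D1:**
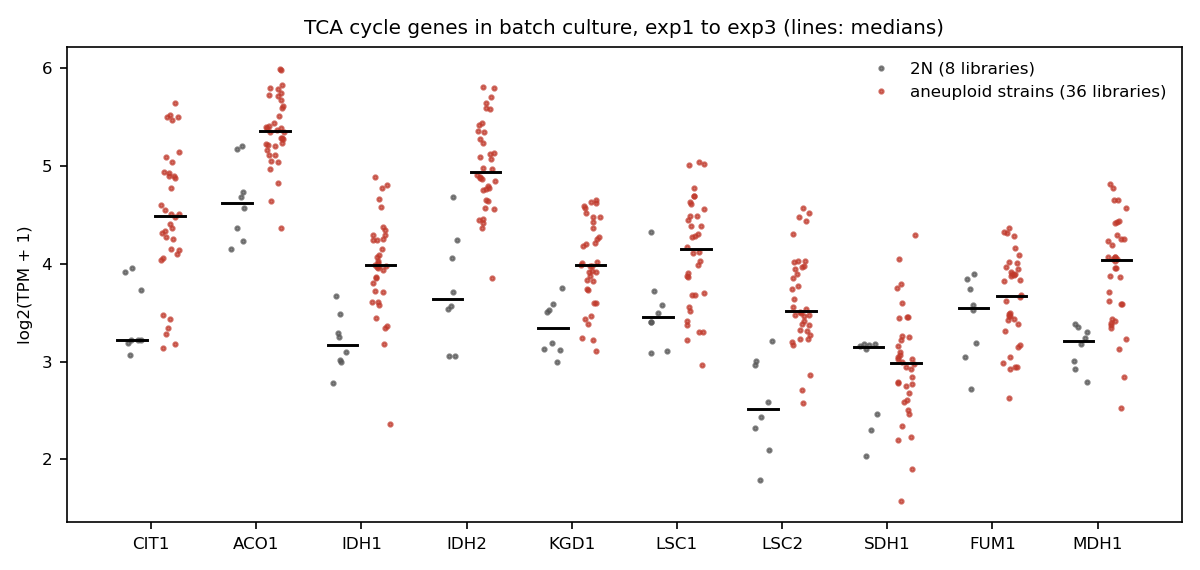
Level of each cycle gene, as log2(TPM + 1), in each batch-culture library of exp1 to exp3, with 2N (8 libraries) beside the aneuploid strains (36 libraries) and horizontal lines at medians. For IDH2 the 2N median is 3.64 and the aneuploid median 4.94, while for SDH1 the medians are 3.14 and 2.99. These medians pool exp1 to exp3 without a term for experiment. For SDH1 their order is opposite to the sign of the fitted difference.

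The fit treats the libraries of a strain as separate samples. With strain as a random block, so that the 10 strains rather than the 36 libraries carry the comparison, 0 of the 10 genes and 1 gene of all those tested passed at the adjusted threshold (7 of the 10 genes at an unadjusted p under 0.05), at a similar size of difference (IDH2 1.2, adjusted p = 0.226; LSC2 1.10, adjusted p = 0.312, limma). The call in batch culture therefore describes these strains as sampled and was not shown for aneuploid strains at large. The share of all genes at the unadjusted threshold is not given here.

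Taken strain by strain, 42 of 100 gene-strain differences were called, all of them higher. A21 and A23 each had 9 of the 10 genes higher, where 20.6% and 20.1% of all genes were, and A20 had 8, where 14.5% of all genes were. A19 and A22 had 6 each (6.38% and 8.57% of all genes higher), A18 and A27 had 2 each (2.28% and 7.8%), and A1, A25 and A35 had 0 (1.62%, 1.08% and 1.49%), with 3, 3 and 5 genes at an unadjusted p under 0.05. The share of all genes at that unadjusted threshold is not given here. The median difference of the 10 genes ran from 0.34 in A1 to 1.10 in A20. The strains with most cycle genes higher were thus also those with most genes of all kinds called, and A20, A21 and A23 entered in 3 experiments where the others entered in 1 or 2.

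IDH2 was called in 7 of the 10 strains, from 0.63 in A1 (not called) to 1.83 in A21. CIT1 and LSC2 were called in 6, with CIT1 at -0.33 in A35 (not called) and 1.86 in A21. SDH1 was called in 1 strain, A23 (0.73 ± 0.20, adjusted p = 0.00487, limma), and stood at -0.59 in A25. FUM1 was called in A21 and A22. Over the 18 strain and experiment pairs, the strain's mean was above that experiment's 2N mean in 18 for ACO1, IDH1, IDH2 and LSC2, in 17 for CIT1 and KGD1, in 16 for MDH1, in 14 for LSC1, in 13 for FUM1 and in 12 for SDH1. An extra chromosome would lift all of its genes together, so each gene was also set beside the median of its own chromosome: IDH2, KGD1 and LSC2 were above it in 10 of 10 strains, and SDH1 and FUM1 in 6. For chromosome XV, where IDH2 lies, that median, less the strain's median over all genes, ran from -0.22 to 0.28. With the median over all genes taken off both, the difference from 2N also went with the chromosome. For 9 of the 10 genes, all but IDH1, the median over strains whose chromosome median was above 0 exceeded that over the other strains. It was 1.07 against -0.25 for CIT1, 0.91 against -0.01 for LSC1, 1.42 against 0.79 for IDH2 and 0.56 against 0.11 for MDH1, and 0.59 against 0.66 for IDH1. With each chromosome centred on its median, 7 genes were higher in the mean of the strains, and LSC1 was no longer called (0.31). How many of all genes passed after that centring is not given here.

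**Figure D2:**
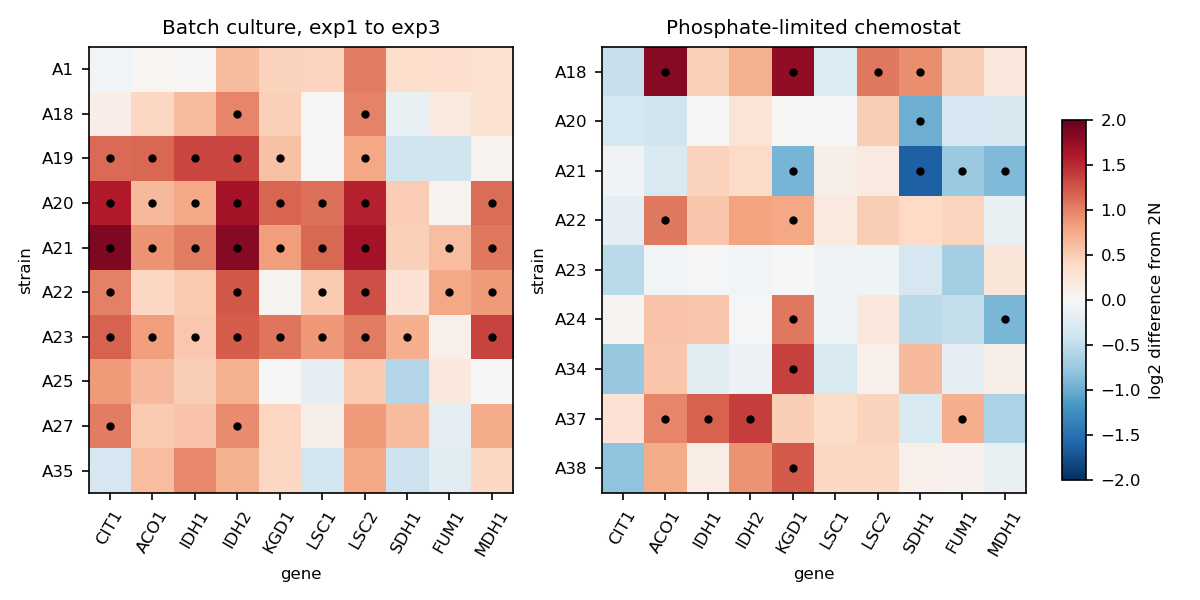
Log2 difference from 2N of each cycle gene (columns) in each aneuploid strain (rows), in batch culture (10 strains) and in the chemostat (9 strains), on a colour scale from -2 to 2 with dots where the adjusted p was under 0.05. In batch culture all 42 dotted cells are higher than 2N, and in the chemostat 13 of the 19 dotted cells are higher and 6 lower.

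Genes beside the cycle did not share the pattern evenly. Of 13 further subunits, assembly factors and isozymes of the cycle, 9 could be tested in batch culture and 0 were higher at the adjusted threshold (3 at an unadjusted p under 0.05, limma). Their median difference was 0.19. SDH3, a membrane anchor of succinate dehydrogenase, stood at 0.57 (adjusted p = 0.0595, limma). Of 7 genes that feed the cycle, PDA1 (0.28) and LAT1 (0.37) of the pyruvate dehydrogenase complex were higher, and MAE1, the mitochondrial malic enzyme, was lower (-0.60 ± 0.10, adjusted p = 2.03e-05, limma). Of 7 mitochondrial carriers, 4 could be tested and OAC1, the oxaloacetate carrier, was lower (-0.98 ± 0.21, adjusted p = 0.000998, limma). CIT2, the peroxisomal citrate synthase known as a reporter of the retrograde pathway, differed by -0.02 (adjusted p = 0.971, limma) and HAP4 by 0.12 (adjusted p = 0.579, limma). Of 11 listed regulators 5 could be tested and 0 passed at the adjusted threshold (1 at an unadjusted p under 0.05). Of 8 genes of the mitochondrial genome, 7 could be tested and 6 were higher. With each library's TPM rescaled to the full scale, the 8 summed to 5787 to 9175 in 2N (median 7245). In the aneuploid libraries they summed to 4470 to 22223 (median 13821). In these total-RNA libraries mitochondrial transcripts thus moved beside the cycle genes, and their part in the result was not tested.

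In exp4, where no 2N library was made, the 18 aneuploid libraries had medians of 5.57 for ACO1, 5.22 for IDH2, 4.46 for CIT1 and 2.72 for SDH1. Both exp3 and exp4 held 7 strains in common. For 64 of their 70 gene and strain means the experiments differed by less than 0.5 on the log2 scale, with a median gap of 0.15 and a widest gap of 0.68.

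The order of the cycle genes by level differed between 2N in total RNA and the aneuploid strains in polyA RNA of exp5 and exp6. In 2N in batch culture ACO1 led at 4.64 ± 0.40 (SD, n = 8), followed by IDH2 at 3.74 ± 0.57, and the neighbours from IDH2 down to MDH1 at 3.15 lay within each other's spread, with LSC2 lowest at 2.55. In exp5, IDH2 (8.52 ± 0.45, n = 24) and IDH1 (8.35) led, ACO1 (7.91) and MDH1 (7.71) came next, and SDH1 (4.14) and KGD1 (4.01) were lowest by more than 1 log2 unit. In exp6 IDH2 (8.64 ± 0.28, n = 24) led again and SDH1 (4.94) and KGD1 (4.63) were lowest again, but MDH1 (8.27) was 2nd and ACO1 (6.91) was 6th. RNA type, kit, TPM total and strains all changed between these sets and cannot be told apart.

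Among the 12 aneuploid strains of exp5 and exp6, which have no 2N library beside them, all 10 cycle genes differed between strains, as did 98.2% of all genes tested (limma F-test, adjusted p under 0.05), so the call itself says nothing particular to the cycle. MDH1 had the widest spread over strains for its error (F = 35.07, adjusted p = 5.78e-16, limma) and IDH1 the narrowest (F = 6.00, adjusted p = 1.36e-05, limma). HAP4 (F = 11.53, adjusted p = 5.53e-09) and CIT2 (F = 3.47, adjusted p = 0.00196, limma) also differed. In exp5, MDH1 was at 6.81 and 6.79 in A1, at 7.20 and 7.28 in A29, at 8.42 and 8.47 in A36 and at 8.54 and 8.44 in A38, and the strains fell into 7 at 7.61 or less and 5 at 8.00 or more. IDH2 was lowest in A1 (7.97 and 7.94) and highest in A36 (9.50 and 9.52). CIT1 had another order, lowest in A32 (5.99 and 6.13) and A34 (6.05 and 6.10) and highest in A26 (7.76 and 7.37). ACO1 had the smallest SD over the 24 libraries (0.24), from 7.54 and 7.54 in A1 to 8.41 and 8.16 in A28.

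Over the 12 strain means of exp5, the 45 pairs of cycle genes had a median Pearson r of 0.42, highest for SDH1 with MDH1 (0.894) and lowest for ACO1 with FUM1 (-0.521); the points share libraries and total. The 6 named genes whose strain means most followed the mean of the cycle genes were GPH1 (glycogen phosphorylase, r = 0.944), TMC1, SOL4, SDH6, STF2 and PIC2 (r = 0.912). HAP4 ranked 37th of 4881 genes (r = 0.837), and CIT2 ran the other way (r = -0.49).

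Between exp5 and exp6, which share 8 strains, the cycle genes moved in both directions, with 7 higher and 2 lower in exp6, where 53.9% and 17.1% of all genes were. ACO1 was lower in exp6 by 1.03 on the log2 scale (-1.03 ± 0.07, adjusted p = 2.61e-14, limma) and CIT1, the step before it, was higher by 0.99 ± 0.09 (adjusted p = 9.97e-12, limma). IDH2 differed by 0.09 ± 0.06 (adjusted p = 0.145, limma). In A38, ACO1 was at 7.85 and 7.64 in exp5 and at 6.14, 6.61 and 6.37 in exp6. CIT2 was higher in exp6 by 1.36 ± 0.15 (adjusted p = 4.92e-10, limma) and HAP4 by 0.73 ± 0.09 (adjusted p = 5.97e-09, limma). This comparison was added after the values were seen, and the batch and anything else that changed between the experiments cannot be told apart.

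In the phosphate-limited chemostat the cycle genes were abundant and the aneuploid strains did not share one direction. KGD1 alone of the 10 genes passed in the mean of 9 aneuploid strains (0.64 ± 0.18, adjusted p = 0.027, limma), where 2.89% of all genes were higher and 13.1% lower. That call was lost without either 2N library, at 0.42 (adjusted p = 0.379) without replicate 1 and 0.87 (adjusted p = 0.0675) without replicate 2. ACO1 stood at 0.55 ± 0.21 (adjusted p = 0.0869), IDH2 at 0.47 ± 0.25 (0.219), CIT1 at -0.32 ± 0.22 (0.35) and MDH1 at -0.27 (0.35), by the same limma test. The median of the 10 genes was 0.20, against -0.17 over all genes.

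These means join libraries of 2 codes. The libraries coded d204 hold 2N, A20, A21 and A23, and those coded d236 hold A18, A22, A24, A34, A37 and A38. KGD1 was at 6.14 and 6.58 in 2N, 6.35 and 6.41 in A20, 5.43 and 5.42 in A21 and 6.19 and 6.51 in A23. In the other code it was at 7.84 and 8.42 in A18, 7.35 and 6.92 in A22, 7.45 and 7.38 in A24, 7.85 and 7.60 in A34, 6.88 and 6.83 in A37 and 7.38 and 7.80 in A38. Every d236 library was above every d204 library. Within d204, where 2N has its own code, the mean difference was -0.31 for KGD1, -0.25 for ACO1 and -0.61 for HAP4, so each of these signs turned. All 2N libraries are in d204, so the code and these 6 strains cannot be told apart.

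ACO1 split the same way, at 7.51 and 7.52 in 2N and 6.89 to 7.62 in the d204 aneuploid libraries, and at 7.75 to 9.57 in d236. SDH1 did not split so cleanly. It was at 7.43 and 7.49 in 2N, at 6.66 and 6.32 in A20 and at 6.06 and 5.61 in A21, and in d236 it ran from 6.92 and 6.92 in A24 to 8.37 and 8.40 in A18. CIT1 was at 9.40 and 9.14 in 2N and at 8.39 to 9.75 in the aneuploid libraries, and the groups overlapped.

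**Figure D3:**
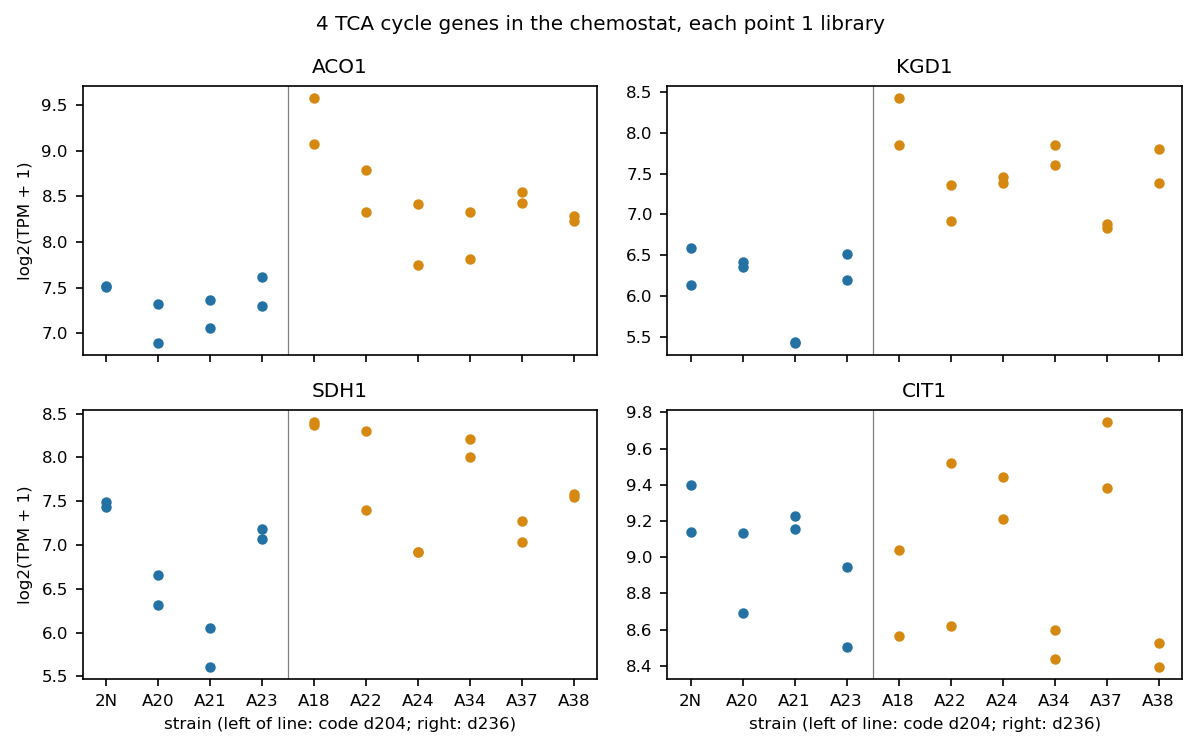
Level, as log2(TPM + 1), of ACO1, KGD1, SDH1 and CIT1 in each chemostat library by strain, with strains of code d204 (2N, A20, A21, A23) left of the vertical line and of code d236 right of it. KGD1 is at 5.42 to 6.58 on the left and at 6.83 to 8.42 on the right, while CIT1 overlaps.

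Strain by strain, 19 of 90 differences were called, 13 higher and 6 lower. The count was 9 without replicate 1 of 2N and 10 without replicate 2, and the shares of all genes called there are not given here. With all libraries, the share of all genes called in either direction was 14.7% in A18, 10.4% in A20 and 12.6% in A21. It was 17.3% in A22, 9.2% in A23, 17% in A24, 18.7% in A34, 24.9% in A37 and 17.7% in A38. A18 had 4 genes higher, ACO1 (1.81), KGD1 (1.77), LSC2 (1.06) and SDH1 (0.93). A37 had another 4 higher, ACO1 (0.98), IDH1 (1.18), IDH2 (1.38) and FUM1 (0.72). A21, with 9 genes higher in batch culture, had 4 lower in the chemostat, SDH1 (-1.63 ± 0.25, adjusted p = 0.00143, limma), KGD1 (-0.93), FUM1 (-0.74) and MDH1 (-0.88). A20 had SDH1 lower (-0.97) and A23 had 0 genes called (1 at an unadjusted p under 0.05). Both strains share the 2N code, so these values do not cross codes.

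Around the cycle, 4 of 13 further subunits and isozymes were lower in the chemostat mean and 0 were higher, among them CIT3, a second mitochondrial citrate synthase (-0.96 ± 0.26, adjusted p = 0.025, limma). CIT2 was lower (-1.41 ± 0.39, adjusted p = 0.027), a call lost without replicate 1 (-1.03, adjusted p = 0.335) or replicate 2 (-1.79, adjusted p = 0.0885) of 2N, and MDH2, the cytosolic malate dehydrogenase, was higher (1.2 ± 0.32, adjusted p = 0.023, limma). Of 11 regulators 1 was lower, HAP3, a subunit of the HAP complex (-0.65 ± 0.14, adjusted p = 0.00944, limma), and HAP4 was at 0.18 (adjusted p = 0.669). With TPM rescaled to the full scale, haploid-specific mating genes summed to 139 to 152 in 2N and to 84.6 to 989 in the aneuploid libraries. Their part was not tested.

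A18, A20, A21, A22 and A23 were grown in both settings, and their mean difference from 2N was lower in the chemostat for all 10 genes, by a median of -0.71 against -0.13 over all genes. The difference between settings passed for 2 of the 10 genes, where 2.17% of all genes were lower and 0.494% higher: CIT1 (-1.48 ± 0.29, adjusted p = 0.000904, limma) and MDH1 (-1.11 ± 0.27, adjusted p = 0.00997). IDH2 stood at -0.97 ± 0.29 (adjusted p = 0.0568) and LSC2 at -0.88 (adjusted p = 0.0769). The call for CIT1 was lost without replicate 1 of the chemostat 2N (-1.35, adjusted p = 0.0637), and that for MDH1 without replicate 1 (-1.27, adjusted p = 0.0534) or replicate 2 (-0.95, adjusted p = 0.328). MDH2 moved the other way (1.94 ± 0.39, adjusted p = 0.00124) and SDH2, the iron-sulfur subunit of succinate dehydrogenase, moved down (-1.16 ± 0.28, adjusted p = 0.0116, limma). CIT2 stood at -1.39 (adjusted p = 0.151) and HAP4 at -0.25 (adjusted p = 0.88, limma). RNA type and kit differ between these settings as well as the culture, and in the chemostat A18 and A22 carry code d236 while 2N carries d204, so these cannot be told apart. Batch levels are small in TPM, where adding 1 shrinks a log2 difference.

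In the pooled spore populations the aneuploid difference was lower with the Tsai protocol than with the Dilution protocol for all 10 genes. With the Tsai protocol 9 of the 10 cycle genes were lower in the aneuploid than in the euploid population and 0 were higher, where 34.7% of all genes were lower and 41% higher. With the Dilution protocol 8 were higher and 0 were lower, where 60.9% of all genes were higher and 15.1% lower. The median of the 10 genes there was 0.30, close to the 0.27 of all genes, and with each library centred on its median 4 of the 10 were higher and 2 lower. The counts of 0 higher and 9 lower in Tsai stood under that centring. For both protocols the share of all genes called after centring is not given here. The difference between protocols passed for 10 of 10 genes, all towards lower in Tsai, where 50.4% of all genes were and 24.7% went the other way (limma).

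LSC2 had the widest gap. It was at 8.75, 8.68 and 8.79 in the Tsai euploid population and at 7.52, 7.47 and 7.48 in the Tsai aneuploid one. In the Dilution protocol it was at 7.16, 7.17 and 7.06 in euploid and at 7.31, 7.43 and 7.50 in aneuploid cells. The Tsai euploid population stood far above the other populations, and the Tsai aneuploid one was close to both Dilution populations. The difference was -1.25 ± 0.05 (adjusted p = 3.37e-13, limma) in Tsai and 0.29 in Dilution.

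SDH1 was at 6.87, 6.77 and 6.84 in Tsai euploid and 6.06, 5.99 and 5.99 in Tsai aneuploid libraries, a difference of -0.81 ± 0.05 (adjusted p = 3.91e-11, limma), and at 5.87, 5.88 and 5.97 against 6.50, 6.57 and 6.52 in Dilution, a difference of 0.63. CIT1 was at 8.48, 8.42 and 8.50 against 7.76, 7.69 and 7.70 in Tsai (-0.75) and at 8.47, 8.45 and 8.47 against 8.99, 9.06 and 9.08 in Dilution (0.58). The euploid levels of CIT1 were thus alike in both protocols and the aneuploid levels lay on opposite sides of them. MDH1 followed, at 8.26, 8.25 and 8.24 against 7.61, 7.62 and 7.51 in Tsai (-0.67) and at 7.59, 7.54 and 7.58 against 8.19, 8.17 and 8.12 in Dilution (0.59).

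KGD1 did not pass in Tsai (-0.05, adjusted p = 0.44, limma), with 6.80, 6.61 and 6.82 in euploid and 6.77, 6.65 and 6.64 in aneuploid libraries, and was higher by 0.63 in Dilution. IDH2 was lower in Tsai (-0.44) and stood at 0.01 in Dilution (adjusted p = 0.805), with 9.33, 9.28 and 9.35 against 9.30, 9.37 and 9.33. FUM1 had the smallest shift between protocols (-0.39), at -0.32 in Tsai and 0.07 in Dilution (adjusted p = 0.145, limma). IDH1 was at -0.60 and 0.32, ACO1 at -0.57 and 0.23, and LSC1 at -0.67 and 0.22. In Dilution the median of all genes was 0.27, and with each library centred on its median ACO1 (-0.019), LSC1 (-0.027), IDH2 (-0.24), FUM1 (-0.18) and HAP4 (-0.085) turned to the other sign, IDH2 and FUM1 then being called lower. For these 4 cycle genes the sign was then the same in both protocols.

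**Figure D4:**
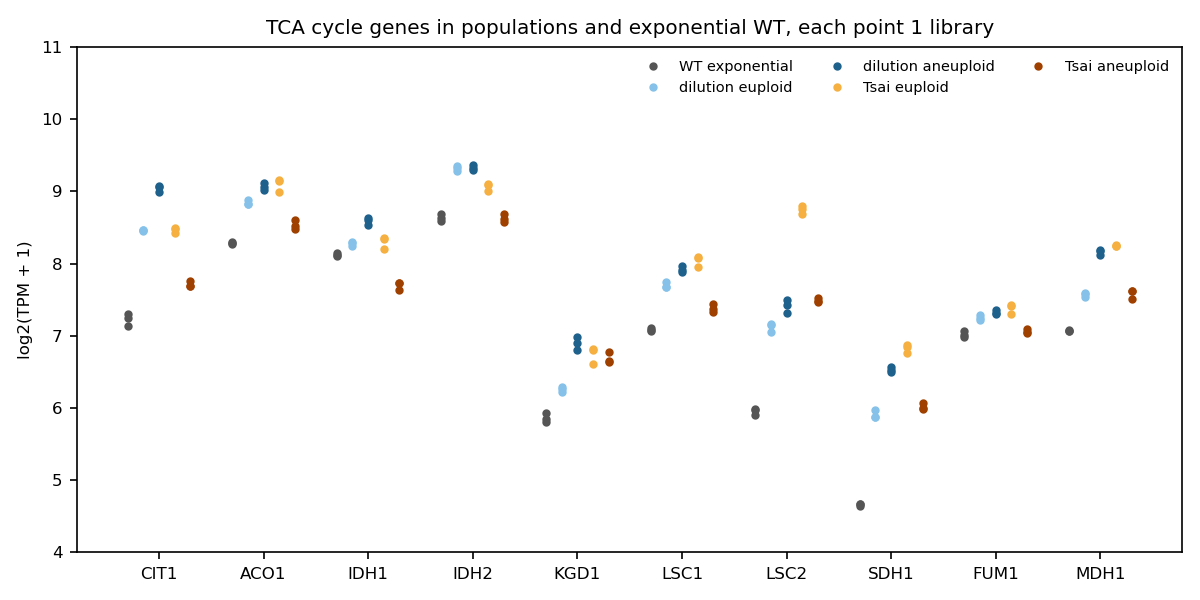
Level of each cycle gene, as log2(TPM + 1), in the 3 libraries of the exponential wild type and of the euploid and aneuploid populations of each protocol. For LSC2 the Tsai euploid libraries are at 8.68 to 8.79 and the Tsai aneuploid ones at 7.47 to 7.52, and for CIT1 the Dilution aneuploid libraries, at 8.99 to 9.08, are the highest.

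The euploid populations stood above the exponential wild type, to which both were compared: all 10 genes were higher in Tsai euploid cells, where 43.9% of all genes were, and all 10 in Dilution euploid cells, where 29% were. LSC2 (2.79), SDH1 (2.17), CIT1 (1.24) and MDH1 (1.18) led in Tsai, and SDH1 (1.25), CIT1 (1.24) and LSC2 (1.17) in Dilution. IDH1 moved least, by 0.18 in Tsai and 0.15 in Dilution. HAP4 was higher (0.41 in Tsai and 0.40 in Dilution) and CIT2 was lower (-0.74 ± 0.08 in Tsai, adjusted p = 6.81e-08, and -1.16 ± 0.08 in Dilution, adjusted p = 3.96e-10, limma), against the direction of the cycle genes. The aneuploid and wild-type comparisons share the euploid libraries. Since the wild type is another strain without the plasmid in its labels, strain, plasmid and growth state cannot be told apart.

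Most close relatives of the cycle genes took the same direction in Tsai. Of 13 further subunits and isozymes 12 were lower in the aneuploid population at the adjusted threshold (limma). All 8 listed cytosolic and peroxisomal relatives were lower, among them PCK1, the entry enzyme of gluconeogenesis (-2.03 ± 0.13), and MLS1, malate synthase of the glyoxylate route (-1.96 ± 0.18). OAC1 was higher (1.84 ± 0.04). CIT2 was lower (-0.56) and HAP4 was lower (-0.32). In Dilution 8 of the 13 were higher and 2 lower and 6 of the 8 relatives were higher, shares near the 60.9% and 15.1% of all genes. There HAP4 was at 0.16, CIT2 was higher by 1.22 ± 0.08 and CAT8, an activator of gluconeogenic genes, by 1.01 ± 0.11. Alpha-specific, a-specific and haploid-specific mating genes each summed lower in the aneuploid than in the euploid population of each protocol. TPM was rescaled to the full scale in each library. Alpha-specific genes then summed to 7533 to 7576 in Dilution euploid and 3727 to 3996 in Dilution aneuploid libraries. The sums were 8898 to 9130 in Tsai euploid, 4012 to 4104 in Tsai aneuploid and 26.0 to 28.8 in wild-type libraries. Those of a-specific genes were 4330 to 4669 against 3683 to 4058 in Dilution and 5982 to 6323 against 4435 to 5508 in Tsai. Haploid-specific sums were 920 to 955 against 587 to 633 in Dilution and 1346 to 1418 against 668 to 683 in Tsai. Their part was not tested.

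In the time course of the wild-type haploid, SDH1, CIT1, MDH1 and KGD1 rose steeply at 16 h. The isocitrate dehydrogenase subunits, already abundant, did not pass the test there on the deposited scale with all libraries in the fit. SDH1 was at 2.94 and 2.89 at 0 h, 3.18 and 3.07 at 4 h, 3.85 and 3.72 at 10 h, 4.43 and 4.72 at 12 h and 5.30 and 5.27 at 14 h, and then at 7.95 and 7.73 at 16 h. It stayed between 7.32 and 8.00 at 18 and 20 h and ran from 6.06 to 8.12 at 22 to 26 h. IDH2, in contrast, was at 8.00 and 7.79 at 0 h, 8.55 and 8.19 at 14 h, 8.98 and 8.52 at 16 h and 6.49 and 7.41 at 26 h.

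Before 16 h no cycle gene passed the test on the deposited scale. At 10 and 12 h against 0 to 4 h, 0 of the 10 genes were called, where 0.937% of all genes were higher, with SDH1 at 1.27 ± 0.36 (adjusted p = 0.0576, limma), and 2 of the 10 were at an unadjusted p under 0.05. At 14 h against 10 and 12 h again 0 were called, where 0.808% of all genes were higher, with SDH1 at 1.11, LSC2 at 1.07, CIT1 at 0.97 and MDH1 at 0.93 and again 2 at an unadjusted p under 0.05. Without either 24 h library, which take no side in the first step but enter its error, SDH1 and LSC2 were called there. CIT2 was at -1.18 in the first step (adjusted p = 0.101, and called without either 24 h library) and at 0.01 in the second, and HAP4 at 0.08 and 0.53 (adjusted p = 1 in the last 3, limma). With each library's TPM rescaled to the full scale, 4 genes were called in the first step (SDH1 1.33, LSC2 1.00, MDH1 0.55 and KGD1 0.46) and 6 in the second (CIT1, KGD1, LSC1, LSC2, SDH1 and MDH1, at 0.59 to 1.14). The shares of all genes called with rescaled TPM are not given here.

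Between 14 and 16 h, 4 of the 10 genes were higher and 0 lower, where 13.8% of all genes were higher and 13.6% lower. They were SDH1 (2.55 ± 0.55, adjusted p = 0.000249), CIT1 (2.23 ± 0.56, adjusted p = 0.00148), MDH1 (1.98 ± 0.54, adjusted p = 0.00387) and KGD1 (1.75 ± 0.55, adjusted p = 0.0117, limma). CIT1 went from 7.25 and 6.96 to 9.58 and 9.10, and MDH1 from 8.30 and 8.00 to 10.21 and 10.05. LSC2 stood at 1.35 (adjusted p = 0.054) and LSC1, its partner, at 0.29 (adjusted p = 0.744). Without replicate 2 of 14 h, KGD1 (1.61, adjusted p = 0.101) and MDH1 (1.83, adjusted p = 0.0536) were no longer called, and without replicate 1 of 16 h KGD1 was not (1.52, adjusted p = 0.13). With rescaled TPM 9 genes were called, all but LSC1, and the share of all genes called is not given here. Of 13 further subunits and isozymes 8 were higher, CIT3 by 3.62 ± 0.58. MLS1 was higher by 4.02 ± 0.56, CIT2 by 2.72 ± 0.56 and HAP4 by 2.65 ± 0.55 (adjusted p = 0.000144, limma).

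Late values depend on the scale. The TPM totals went from 59.0% to 95.8% of the full scale at 0 to 12 h to 15.4% to 61.1% at 22 to 26 h. At 22 to 26 h against 0 to 4 h, as deposited, 6 genes were higher and 4 lower, where 11.6% of all genes were higher and 66.6% lower and the median of all genes was -1.32. SDH1 was higher by 4.33 ± 0.32 (adjusted p = 4.53e-18), KGD1 by 2.54, MDH1 by 2.48, CIT1 by 2.12, LSC2 by 1.53 and FUM1 by 1.03. IDH2 (-1.51), IDH1 (-1.21), LSC1 (-0.99) and ACO1 (-0.69, adjusted p = 0.0407, limma) were lower. Rescaled, SDH1 was higher by 5.82, KGD1 by 4.02 and MDH1 by 3.97, while ACO1 (0.78), LSC1 (0.46) and IDH1 (0.26) were higher instead of lower, and IDH2 stood at -0.04 and did not pass. Without the 3 libraries under 30% of the full scale, 6 were higher and 2 were lower, IDH1 at -0.55 and IDH2 at -0.78. There ACO1 (-0.03) and LSC1 (-0.28) did not pass, and the share of all genes called is not given here. At 22 to 26 h against 18 and 20 h, 4 were lower as deposited, IDH1 (-1.25), LSC2 (-1.16), IDH2 (-1.15) and CIT1 (-1.01), where 63.6% of all genes were lower and 0.882% higher and the median of all genes was -0.93. That count was 10 without replicate 2 of 24 h, 7 without replicate 1 of 22 h and 2 without replicate 2 of 20 h. What share of all genes was called without those libraries is not given here. CIT2 (-1.54, adjusted p = 0.000922) and HAP4 (-1.07, adjusted p = 0.0103, limma) were lower in that comparison, the call for HAP4 being lost without replicate 2 of 18 h or of 20 h.

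A difference between 2 genes of one library is free of the library's scale except through the added 1. That matters for low genes, such as SDH1 at 0 h. SDH1 was below IDH2 by 4.98 on the log2 scale at 0 h (a mean difference of -4.98), by 3.49 at 12 h (-3.49), and by 0.91 at 16 h (-0.91), and was above it at 26 h (0.64). CIT1 stood below ACO1 at 0 h (-1.08) and above it at 16 h (1.23) and 18 h (2.49). The subunits of succinyl-CoA ligase crossed too, with LSC2 minus LSC1 at -0.88 at 0 h, -0.10 at 12 h, 1.27 at 16 h and 2.23 at 20 h. Rescaled by library, SDH1 went from 3.04 and 2.96 at 0 h to 9.11 and 9.09 at 26 h, and IDH2 from 8.11 and 7.88 to 8.37 and 8.53. SDH1 and ACO1, whose promoters above both hold ACCAATNA, thus ended far apart in their change, and nothing about the factor follows from the letters.

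**Figure D5:**
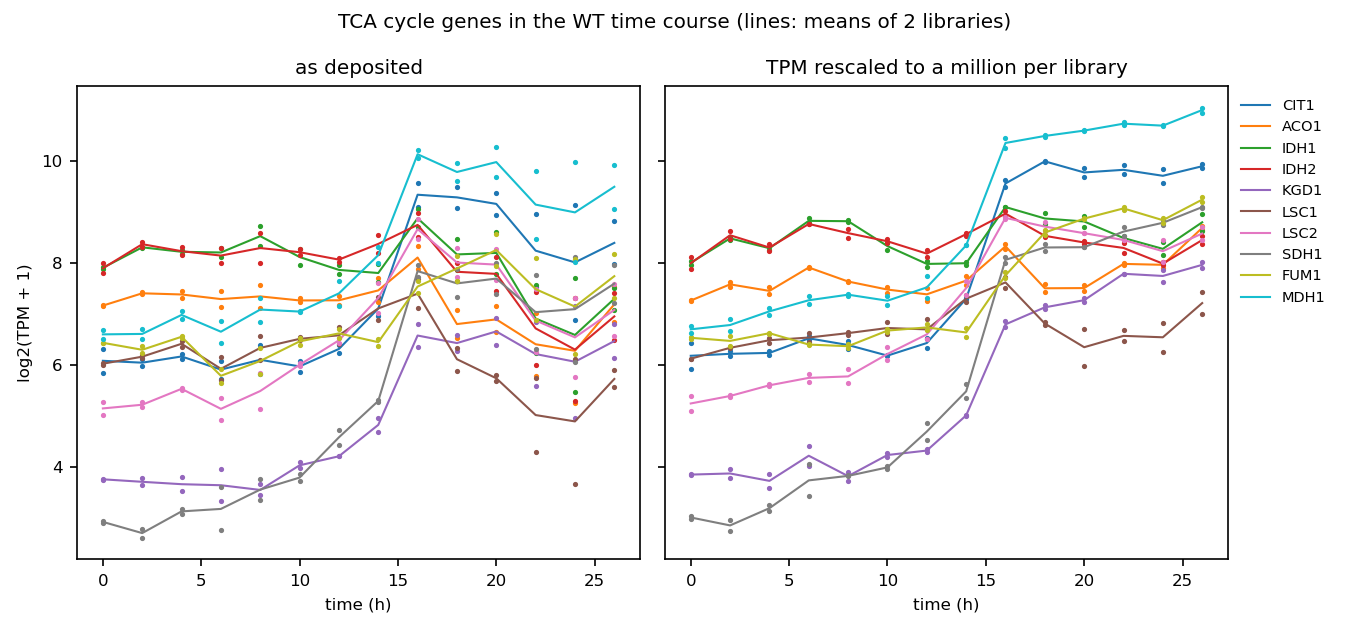
Level of each cycle gene over 0 to 26 h in the wild-type haploid, as deposited (left) and with each library's TPM rescaled to the full scale (right), on a log2 axis; points are libraries and lines join means of 2. SDH1 climbs in both panels, by 4.33 as deposited and 5.82 rescaled between 0 to 4 h and 22 to 26 h, while IDH2 differs by -1.51 and -0.04.

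Over the 14 time means, the 45 pairs of cycle genes had a median r of 0.02 as deposited and 0.57 rescaled, and all points share the fall of the totals. SDH1 and MDH1 ran closest on both scales (r = 0.989 as deposited and 0.996 rescaled). As deposited 21 pairs were below 0 and IDH2 and KGD1 were farthest apart (r = -0.494), and rescaled 2 pairs were, with IDH2 and FUM1 farthest apart (r = -0.150). The 6 named genes whose time means most followed the mean of the cycle genes were PLN1 (the yeast perilipin, r = 0.992), BXI1, VVS1, ATH1 (acid trehalase), CMC2 and MCR1 (r = 0.987) as deposited. Rescaled, they were NDI1 (the internal NADH dehydrogenase), RIP1 and QCR10 (subunits of respiratory complex III), VID30, KGD4 and COX20, and 0 of the 6 were shared. HAP4 ranked 549th of 4940 genes as deposited (r = 0.879) and 440th of 5007 rescaled (r = 0.964). Late in the course PCK1 was higher than at 0 to 4 h by 6.89, MLS1 by 5.96 and SFC1, the succinate-fumarate carrier, by 5.63, and HAP4 by 2.61, as deposited. CIT2 stood at 0.58 (adjusted p = 0.0972, limma) and was called without replicate 2 of 22 h (0.80), replicate 1 of 24 h (0.93) or replicate 1 of 26 h (0.76), and at 2.06 with rescaled TPM.

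The W303 haploid in NaCl has no untreated library beside it and gives levels only. At low TPM totals, ACO1 was at 3.86, 3.60 and 3.77, LSC1 at 3.81, 3.76 and 3.65, IDH2 at 3.88, 3.18 and 3.93, and CIT1 at 4.00, 3.34 and 3.59. SDH1 was at 2.28, 2.49 and 2.48 and MDH1 at 2.84, 2.64 and 2.84. IDH1 varied most, at 3.00, 3.29 and 2.17. No comparison was made with them.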

How the data were processed

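Gene levels were taken from the deposited table of log2(TPM + 1), with 6692 genes and 176 libraries and no replicate pooled. The authors used STAR 2.5.3a and RSEM 1.3.0 on sacCer3, per the submitters' processing notes, and the deposited annotation adds spike-in sequences to the yeast genes. TPM keeps no depth, so the number of reads behind a value is unknown and no count test was run. Every value column was matched to a sample by its title (0 unmapped), and gene symbols came from R64 by locus tag (6008 matched).

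Differences were tested on the deposited log2 scale (pseudocount 1) with limma 3.58.1 in R 4.3.3, with trend on. Genes with a mean of at least 2 entered, and p-values were adjusted over all genes tested by Benjamini-Hochberg at 0.05. Of the fits, only that of batch culture was also run on simulated data, which held no spread between strains. Adding 1 shrinks differences of low genes. Counts at an unadjusted p are given without the share of all genes at that threshold. Batch fits had strain and experiment as terms, the chemostat had strain, the populations had group, and all 28 time course libraries entered 1 fit with time as a factor. Levels and plots came from pandas 2.3.3, numpy 2.4.6 and matplotlib 3.10.9 under Python 3.11.15. The named genes are the 10 cycle genes, CIT2 and HAP4 in every comparison, up to 3 called genes with the largest change of each further list, and the 6 genes most correlated with the mean of the cycle genes. The members and the lists were chosen with earlier results of these data known. Labels do not say that replicates are separate cultures, so p-values measure only the spread between these libraries. A chemostat A24 library and an exp4 A18 library carry another strain in a secondary label and were kept under their titles. Of the further lists, the result of 1 gene is not reported here.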

Additional observations from a re-analysis of the deposited data

Results flagged for a closer look

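The difference from 2N changed between batch culture and the chemostat, by a test of the difference itself over 5 shared strains (limma, adjusted over all genes), for 2 cycle genes and 2 relatives: CIT1 (-1.48), MDH1 (-1.11), SDH2 (-1.16) and MDH2 (1.94), the last alone being higher in the chemostat. RNA type, kit and culture change together between these settings. In the chemostat A18 and A22 also carry code d236 while 2N carries d204, so these cannot be told apart.

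The aneuploid difference changed between the Tsai and Dilution protocols for all 10 cycle genes: LSC2 (-1.54), SDH1 (-1.44), CIT1 (-1.33), MDH1 (-1.26), IDH1 (-0.91), LSC1 (-0.89), ACO1 (-0.80), KGD1 (-0.69), IDH2 (-0.45) and FUM1 (-0.39). The same test passed for CIT2 (-1.79), MLS1 (-2.36), PCK1 (-2.75), CAT8 (-2.44) and HAP4 (-0.48). Of all genes, 50.4% passed in this direction and 24.7% in the other. The direction was the same in each of these 15 genes, towards a lower aneuploid level in Tsai. MLS1, PCK1 and CAT8 were picked as the called genes of the further lists with the largest change in this same test. Alpha-specific, a-specific and haploid-specific mating genes also summed lower in the aneuploid than in the euploid population in both protocols. Their part in these differences was not tested.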

How the results depend on the processing

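Of 1308 alternative values of single genes, 1158 kept their direction and their side of the threshold, 63 passed only under the alternative, 47 no longer passed and 40 changed sign; where no reason is given, the cause was not tested. Counts below are of the 10 cycle genes called, without the share of all genes called beside them. In batch culture the 8 became 4 with a filter at a mean of 4, which tests fewer genes, and 0 with strain as a random block, and the 42 strain calls became 25 with that filter. FUM1 turned to -0.39 in exp1 alone, and CIT2 to 0.47 in exp2 alone, 0.18 with chromosomes centred, 0.057 with the replicate block and -0.19 to 0.066 with a library left out. In the chemostat the 1 became 2 with rescaled TPM, 3 with libraries centred on their median and 2 with chromosomes centred, where FUM1 turned to 0.018, 0.089 and 0.16; with the d204 libraries only KGD1 was -0.31, ACO1 -0.25 and HAP4 -0.61. Leaving out a library gave 0 to 2 calls, 9 to 26 strain calls, FUM1 at -0.25 to 0.091 and LSC1 at -0.031 to 0.12. The chemostat minus batch count of 2 became 1 with median centring, 5 with the filter at 4, 5 with the replicate block and 0 to 4 with a library left out. Replicate numbers did not pair the libraries (median correlation of same-numbered libraries -0.01 in batch culture and -0.04 in the chemostat); the block moved no other count of cycle genes by over 1.5 times. With median centring in Dilution ACO1 turned to -0.019, LSC1 to -0.027, IDH2 to -0.24, FUM1 to -0.18 and HAP4 to -0.085, and with a library left out IDH2 ran from -0.0078 to 0.027; IDH2 in exp6 against exp5 turned to -0.14 with that centring. In the time course, with rescaled TPM, median centring and only libraries over 30% of the total (a choice made after seeing the data, like exp6 against exp5), the calls were 4, 4 and 2 at 10 and 12 h (main 0, and 1 with the filter at 4), 6, 7 and 4 at 14 h (main 0), 9, 8 and 8 at 16 h (main 4), and 7, 8 and 1 at 22 to 26 h against 18 and 20 h (main 4). In that last comparison ACO1 turned to 0.71, 0.72 and 0.44, KGD1 to 0.63, 0.65 and 0.39, SDH1 to 0.53, 0.54 and 0.31, FUM1 to 0.32, 0.33 and 0.044, MDH1 to 0.26, 0.27 and 0.023, and LSC1 to 0.20 and 0.23 under rescaling and centring. Against 0 to 4 h, rescaling and centring turned ACO1 to 0.78 and 0.56, IDH1 to 0.26 and 0.042 and LSC1 to 0.46 and 0.26, and rescaling turned IDH2 at 10 and 12 h to 0.024. Leaving out a library gave 0 to 2 calls at 10 and 12 h, 2 to 7 at 16 h and 2 to 10 at 22 to 26 h against 18 and 20 h, with ranges across 0 for CIT1 (-0.035 to 0.13) and IDH2 (-0.060 to 0.0072) at 10 and 12 h, ACO1 (-0.039 to 0.43) and CIT2 (-0.35 to 0.37) at 14 h, and ACO1 (-0.57 to 0.12) and KGD1 (-0.66 to 0.073) late. Outliers were sought only in 2N of exp1, as no other group held 4 to 10 libraries. None of the 10 genes had a library there that stood apart.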
